A study of Mus musculus with 6 samples.

Results

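The genes described here are 46 components of the machinery that copies DNA, from the proteins that mark replication origins to those that restore chromatin behind the fork. They were chosen by symbol, by a list that uses no measured value but was drawn up with earlier results of these data known, and all 46 were found among the 14608 genes of the deposited expression tables. All 46 also passed the filter on low values, a mean of at least 0.5 RPKM (reads scaled by gene length and library depth) over the libraries, which left 12233 genes for testing. Regulatory T (Treg) cells are Foxp3-expressing CD4+ lymphocytes that hold immune reactions in check, and Cdc42 is a small GTPase that controls the actin cytoskeleton and cell polarity. RNA-seq was run on Treg cells of mouse spleen in 6 libraries, 2 each from wild-type (WT) mice, mice heterozygous for a Cdc42 knockout (Cdc42+/-) and mice homozygous for it (Cdc42-/-). In every genotype the cells were enriched for CD4 on magnetic columns and then sorted as CD4+YFP+. The sources used here name neither the promoter that drives the YFP or any Cre, nor the deleted part of Cdc42, the age or sex of the mice, or a treatment.

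A replication origin is licensed in G1 phase, when the origin recognition complex (ORC), Cdc6 and Cdt1 load the ring-shaped MCM2-7 helicase onto DNA. At the start of S phase the kinase Cdc7 with its activator Dbf4, together with Cdc45, the GINS complex and Mcm10, turns the loaded ring into an active helicase, and polymerases alpha, delta and epsilon follow it on the opened strands. Many of these genes are known targets of E2F transcription factors and are transcribed in cells that enter the cycle, while resting lymphocytes hold little of the short-lived factors.

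The libraries held between 8556576 and 17796100 reads in genes, and the fewest reads behind any value of a member were 10, for Gins2 in WT replicate 2. Cdc42 itself had 166 and 161 RPKM (WT), against 164 and 156 RPKM (labelled Cdc42+/-) and 122 and 173 RPKM (labelled Cdc42-/-). Its difference from WT in Cdc42-/- was -0.17 on the log2 scale (SE 0.17, adjusted p 0.550 by limma), so a level summed over the whole gene does not show the deletion, and directions given here belong to libraries as they are labelled. Treg and T cell markers were detected in every library, 10 of 10 listed genes, with a summed level of 1936 to 2104 RPKM in WT and Cdc42+/- and 1618 and 1278 RPKM in Cdc42-/-. Of these, Cd3e, Ikzf2 and Ikzf4 fell in Cdc42-/- against WT (log2 fold changes -0.78, -0.90 and -1.22, adjusted p 0.0126, 0.0311 and 0.0471 by limma). Foxp3, at 131 and 118 (WT), 113 and 103 (Cdc42+/-) and 118 and 58.4 RPKM (Cdc42-/-), did not pass (-0.58, adjusted p 0.262). In both Cdc42-/- libraries 1 of the 10 was higher than in WT. Replicate 2 of Cdc42-/- stood apart from all other libraries by the summed level of 11 myeloid markers, 1094 RPKM against 22.3 RPKM in replicate 1 and 4.37 to 20.8 RPKM in the other genotypes, and of 8 neutrophil markers, 546 RPKM against 16.3 to 57.1 RPKM elsewhere. Erythroid markers summed to 37.7 and 77.7 RPKM in Cdc42-/- against 15.6 to 26.2 RPKM in the other libraries, and all 7 of the 12 listed that were in the tables were higher in both Cdc42-/- libraries than in WT. Most of that sum in WT was Gata1, at 20.6 and 23.4 RPKM, and without Gata1 the other 6 summed to 1.28 and 2.83 (WT), 1.70 and 2.41 (Cdc42+/-) and 10.1 and 48.6 RPKM (Cdc42-/-). Plasma cell markers summed to 31.8 and 31.7 (WT), 116 and 91.8 (Cdc42+/-) and 47.9 and 193 RPKM (Cdc42-/-), higher than WT in each library of the other genotypes. Of the 6 listed, 3 were higher in both Cdc42+/- libraries than in WT, and 2, Prdm1 and Irf4, in both Cdc42-/- libraries. Jchain had 10.1 and 9.17 (WT), 89.0 and 69.2 (Cdc42+/-) and 0.946 and 123 RPKM (Cdc42-/-). Irf4 and Prdm1, at 29.8 and 15.1 RPKM, made up most of the sum in Cdc42-/- replicate 1. B cell markers ranged from 10.4 to 19.8 RPKM and NK and CD8 markers from 9.13 to 14.5 RPKM. Sex-linked expression also differed: Xist had 0.199 and 1.13 (WT), 99.3 and 93.3 (Cdc42+/-) and 87.4 and 21.2 RPKM (Cdc42-/-). The Y-linked Ddx3y had 37.7 and 42.4 (WT), 0.126 and 0 (Cdc42+/-) and 0.0974 and 27.5 RPKM (Cdc42-/-). In both Cdc42+/- libraries and in Cdc42-/- replicate 1, genotype and the sex-linked difference from WT cannot be told apart, and Cdc42-/- replicate 2 held RNA of both genes.

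The promoter sequences of members that differ in their response are shown first, because E2F-type letters are the best known shared feature of replication genes. RefSeq windows from 250 bases before to 50 bases after an annotated start (GRCm38.p6, the mm10 assembly) were found for 38 of the 46 members, 48 windows in all. The stretches below are 80 bases each, 5′ to 3′ on the gene's strand, outside annotated exons. Those of Cdc6, Pola1, Uhrf1 and Rfc1 lie before a start inside the annotated span of the gene, not upstream of the gene. Uhrf1 also had a window at an earlier start, which held CCAAT but no E2F-type letters. Capitals mark 1 of the letters TTTCCCGC, TTTGGCGC, TTTCGCGC or TTTGCCGC on either strand (the E2F-type motif), or CCAAT on either strand. Stretches with E2F-type letters come from Cdc6, an origin loader, Mcm5 and Mcm6, helicase subunits, Pola1, the catalytic subunit of polymerase alpha, and Uhrf1, a factor that copies DNA methylation.
Cdc6, chr11:98907982-98908061, plus strand: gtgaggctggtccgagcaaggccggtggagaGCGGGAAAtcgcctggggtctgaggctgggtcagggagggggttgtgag
Mcm5, chr8:75109321-75109400, plus strand: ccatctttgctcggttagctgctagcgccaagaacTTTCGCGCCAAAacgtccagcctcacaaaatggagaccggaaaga
Mcm6, chr1:128359741-128359820, minus strand: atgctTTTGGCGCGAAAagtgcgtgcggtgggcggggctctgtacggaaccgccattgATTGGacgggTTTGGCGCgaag
Pola1, chrX:93632251-93632330, minus strand: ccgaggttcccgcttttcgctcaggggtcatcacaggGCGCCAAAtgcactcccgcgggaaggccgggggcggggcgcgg
Uhrf1, chr17:56304091-56304170, plus strand: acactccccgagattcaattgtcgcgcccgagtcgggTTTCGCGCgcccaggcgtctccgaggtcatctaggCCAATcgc
In Mcm5 and in the first stretch of Mcm6 a pair of E2F-type matches on opposite strands overlap and are marked as 1 run. The next windows held CCAAT but no E2F-type letters: those of Rrm2, Mcm10 and Chaf1a, which with Uhrf1 above had the highest log2 fold changes between Cdc42-/- and WT, and that of Rfc1, which did not pass the test in any comparison.
Rrm2, chr12:24708161-24708240, plus strand: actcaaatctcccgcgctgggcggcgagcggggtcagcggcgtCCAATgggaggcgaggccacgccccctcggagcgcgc
Mcm10, chr2:5012810-5012889, minus strand: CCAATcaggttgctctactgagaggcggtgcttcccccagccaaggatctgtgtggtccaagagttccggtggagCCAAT
Chaf1a, chr17:56040297-56040376, plus strand: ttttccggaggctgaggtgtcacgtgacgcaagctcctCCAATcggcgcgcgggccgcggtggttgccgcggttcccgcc
Rfc1, chr5:65335764-65335843, minus strand: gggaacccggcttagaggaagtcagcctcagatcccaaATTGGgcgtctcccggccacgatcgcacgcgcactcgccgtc

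E2F-type letters were present in at least 1 window of 16 of the 38 members (42.1%), against 4.79% of the 9725 tested genes with a window. Counted by window instead of by gene, 2.27% of all 32851 windows held them. CCAAT, the letters bound by NF-Y, stood in 22 of the 38 members (57.9%), against 43.2% of the tested genes, and TTTGAA, the letters of the cell cycle homology region, in 8 (21.1%), against 14.6%. Of the 16 members with E2F-type letters, 15 were higher in Cdc42-/- than in WT past the threshold given below, with a median log2 fold change of 1.54. Of the 22 without them 19 were, with a median of 1.41. Both groups ranged widely, from 0.58 to 2.88 with the letters and from 0.25 to 3.40 without them. The shares depend on the letters and the window. In the 250 bases before the start alone, 10 members (26.3%) had a match, against 3.97% of the tested genes. The 6-base core GGCGGG or GGCGCC stood in 32 members (84.2%), against 70.6% of the tested genes.

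Replication genes were higher in Cdc42-/- Treg cells than in WT across every role, and 39 of the 46 members rose while 0 fell (limma on log2(RPKM + 1), adjusted p below 0.05 over all genes). Of all genes tested, 6.86% were higher and 4.57% lower in that comparison. The median log2 fold change of the 46 members was 1.37, against 0.01 over all genes, and every member had a value above 0, against 51.0% of all genes. Both Cdc42-/- libraries lay above both WT libraries for 44 of the 46, against 28.9% of all genes, with Orc2 and Pold2 as the exceptions. In sorted bulk RNA, more cells that express a gene and more of its RNA per cell cannot be told apart. Without replicate 2 of Cdc42-/-, the library with the myeloid and neutrophil RNA, the same 39 members rose with a median of 1.22, when 9.89% of all genes were higher. Without WT replicate 1 or WT replicate 2 the counts were 16 and 14, when 1.58% and 1.6% of all genes were higher, while 40 and 42 members had an unadjusted p below 0.05 and were higher. Of the 39 calls, 11 were kept under every alternative in which the gene was tested (Cdc6, Chaf1a, Dbf4, Dnmt1, Lig1, Mcm3, Mcm5, Pole, Rfc3, Rrm2 and Uhrf1), 21 were lost only when 1 or the other WT library was left out, and 7 (Cdc45, Cdc7, Mcm6, Orc6, Pcna, Pold3 and Tyms) were lost in other alternatives too.

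No member passed in Cdc42+/- against WT by limma, where 0.0% of all genes did, and the median log2 fold change of the members was 0.27 against 0.03 over all genes. At an unadjusted p below 0.05, 14 members were higher and 0 lower, against 3.16% and 1.17% of all genes. These 14 were Rrm2, Rrm1, Uhrf1, Dnmt1, Chaf1a, Lig1, Cdc6, Gmnn, Gins2, Dbf4, Mcm5, Pola1, Prim2 and Pold3. The log2 fold change was above 0 for 42 members (56.6% of all genes) and at least 1 for 2, Rrm2 and Gins2 (1.14%). The value of Gins2, 1.12, was 0.65 without WT replicate 2, the library with 10 reads of it. The summed levels of plasma cell markers, mostly Jchain, and of myeloid markers were also higher in both Cdc42+/- libraries than in WT. Myeloid markers were at 18.1 and 20.8 against 4.37 and 9.77 RPKM, and the part of both lists in the members' difference was not tested. The libraries of Cdc42+/- lay above both WT libraries for 35 members (26.2% of all genes) and below both for 2 (17.0%), Gins1 and Gins4. The limma voom fit on recovered reads also gave 0 members, while the authors' deposited table, whose test is not named in the sources used here, has 6 members past an adjusted p of 0.05 (1.72% of its genes): Rrm2, Uhrf1, Lig1, Rrm1, Pola1 and Mcm5. When Cdc42-/- replicate 1 or replicate 2 was left out of the shared fit, 2 members passed, Rrm2 and Uhrf1, and 0.482% or 0.417% of all genes were higher.

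In Cdc42-/- against Cdc42+/-, 37 members rose and 0 fell, against 4.68% and 3.54% of all genes, with a median log2 fold change of 1.15 against -0.01 over all genes. Both Cdc42-/- libraries lay above both Cdc42+/- libraries for 44 members (28.6% of all genes) and below them for 0 (30.4%). The log2 fold change was above 0 for all 46 (48.9% of all genes) and reached 1 for 32 (6.78%). These calls rest on few libraries. Without either Cdc42+/- library no member passed in limma (0% of all genes were higher), although 39 and 38 of them were higher at an unadjusted p below 0.05, and without WT replicate 1 or 2, which enter only the shared spread, 13 passed (1.32% and 1.39% of all genes). Without replicate 2 of Cdc42-/- the count was 36 (7.28% of all genes), Orc6 being lost. The level of 35 of the 46 members was ordered WT, Cdc42+/-, Cdc42-/- with no overlap between the libraries of neighbouring genotypes, against 8.25% of all genes. The comparisons of both knockout genotypes with WT share the WT libraries.

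**Figure D1:**
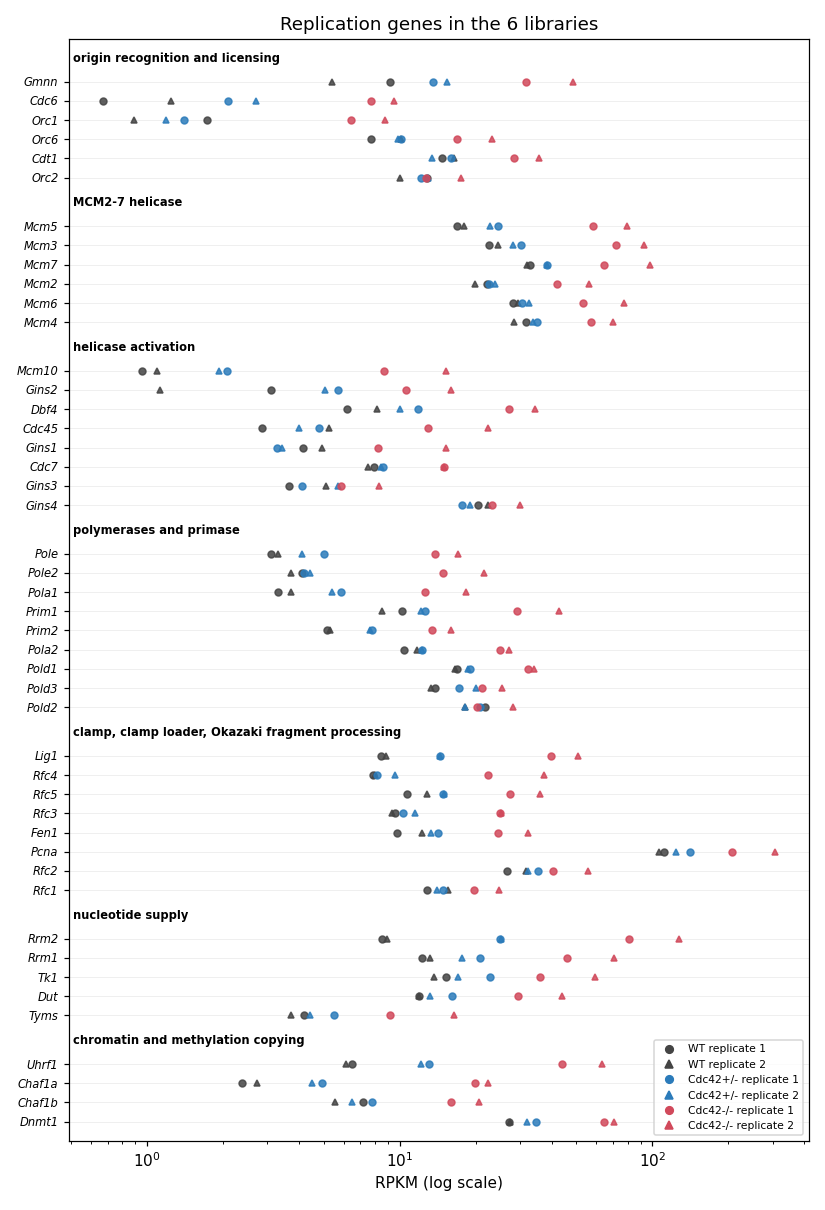
RPKM of the 46 members on a log axis, 1 row per gene grouped by role, with 1 point per library (colour for genotype, shape for replicate). The Cdc42-/- points lie to the right of both other genotypes except in the rows of Orc2 and Pold2, and in every row replicate 2 of Cdc42-/- lies at or to the right of replicate 1.

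Among the licensing factors, 5 of 6 rose in Cdc42-/- against WT, with a median log2 fold change of 1.50. Cdc6, the loader that brings the helicase to ORC and the member with the lowest level in WT, had 0.668 and 1.24 (WT), 2.09 and 2.70 (Cdc42+/-) and 7.71 and 9.52 RPKM (Cdc42-/-). The 3 genotypes did not overlap, and the difference between Cdc42-/- and WT was 2.31 (SE 0.24, adjusted p 0.00397), which understates the ratio of the mean RPKM, 9.02-fold, because 1 RPKM was added before the logarithm. Gmnn encodes geminin, which holds Cdt1 inactive outside G1. Its level was 9.13 and 5.38 (WT), 13.5 and 15.5 (Cdc42+/-) and 31.6 and 48.5 RPKM (Cdc42-/-). Gmnn rose (log2 fold change 2.32, SE 0.28, adjusted p 0.00613), a call lost without WT replicate 2 (adjusted p 0.0516).

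Cdt1, the partner of Cdc6 in loading, rose by 0.98 (SE 0.16, adjusted p 0.0152), and the ratio of Gmnn to Cdt1 RPKM was 0.621 and 0.327 (WT), 0.848 and 1.15 (Cdc42+/-) and 1.11 and 1.37 (Cdc42-/-). Within ORC, Orc1, the subunit that is degraded and remade in each cycle, rose by 1.90 (SE 0.27, adjusted p 0.00989) and Orc6 by 1.09 (SE 0.20, adjusted p 0.0227), the call of Orc6 being lost in 5 of 16 alternatives and that of Orc1 without WT replicate 2. In Cdc42+/- against WT, where no gene passed, their log2 fold changes were 0.02 (SE 0.27) and 0.17 (SE 0.20). Orc2, a core subunit, had 12.9 and 10.1 (WT), 12.2 and 13.0 (Cdc42+/-) and 12.7 and 17.6 RPKM (Cdc42-/-), so its libraries overlapped and it did not pass (0.36, SE 0.20, adjusted p 0.272). The core subunits Orc3, Orc4 and Orc5, from a further list of pathway genes, did not pass either, with log2 fold changes of -0.26, -0.28 and -0.40. The summed RPKM of all 6 ORC subunits was 65.9 and 63.3 (WT), 65.1 and 64.5 (Cdc42+/-) and 69.5 and 83.8 (Cdc42-/-), above the other genotypes in both Cdc42-/- libraries. The share of Orc1 in this sum was 2.63% and 1.41%, 2.16% and 1.85%, and 9.25% and 10.5% in the same order.

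All 6 subunits of the MCM2-7 ring rose in Cdc42-/- against WT and against Cdc42+/-. Mcm5 had the largest difference, from 16.9 and 18.0 (WT) and 24.6 and 22.7 (Cdc42+/-) to 58.6 and 79.3 RPKM (Cdc42-/-) (1.91 against WT, SE 0.16, adjusted p 0.00223). Mcm3 had 22.6 and 24.5 (WT), 30.3 and 28.1 (Cdc42+/-) and 71.9 and 92.4 RPKM (Cdc42-/-) (1.75, SE 0.15, adjusted p 0.00209). These 2 subunits, which sit side by side in the ring, kept their call against WT under every alternative run.

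The other four subunits rose by less. Mcm7 had 32.7 and 32.0 (WT), 38.2 and 38.2 (Cdc42+/-) and 64.3 and 97.7 RPKM (Cdc42-/-) (1.27, SE 0.19, adjusted p 0.0126). Mcm2 was at 22.2 and 19.8, 22.6 and 23.9, and 41.9 and 56.2 RPKM in the same order (1.17, SE 0.16, adjusted p 0.00895). Mcm6 was at 28.0 and 29.4, 30.6 and 32.4, and 53.1 and 77.7 RPKM (1.13, SE 0.18, adjusted p 0.0149). For each of these genes both Cdc42-/- libraries lay well above the rest, while WT and Cdc42+/- lay close together. Mcm4 had the smallest difference of the ring, from 31.8 and 28.3 (WT) and 35.1 and 33.7 (Cdc42+/-) to 57.2 and 69.8 RPKM (Cdc42-/-) (1.05, SE 0.13, adjusted p 0.00693). The calls of Mcm2, Mcm4, Mcm6 and Mcm7 against WT were lost without either WT library, with adjusted p-values up to 0.116, and that of Mcm6 also without either Cdc42+/- library and with only the 2 genotypes compared.

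The ring holds 1 copy of each subunit, and RPKM is per length, so the transcript shares can be compared within a library. In WT the summed RPKM of the 6 genes was 154 and 152, and the highest subunit stood at 1.94 and 1.77 times the lowest. In Cdc42-/- the sum was 347 and 473 and this ratio was 1.71 and 1.74. The order of the subunits changed beneath these similar ratios: the share of Mcm5, the lowest in WT, was 10.9% and 11.9% (WT), 13.6% and 12.7% (Cdc42+/-) and 16.9% and 16.8% (Cdc42-/-). The share of Mcm4 moved the other way, from 20.6% and 18.6% in WT and 19.3% and 18.8% in Cdc42+/- to 16.5% and 14.8% in Cdc42-/-. Neither share overlapped between Cdc42-/- and the other genotypes. Mcm7 shares its span with Mir25, Mir93, Mir106b and Ap4m1, and because the strand setting of the counting is not given in the sources used here, reads of 18 members that overlap another annotated gene may have been shared.

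**Figure D2:**
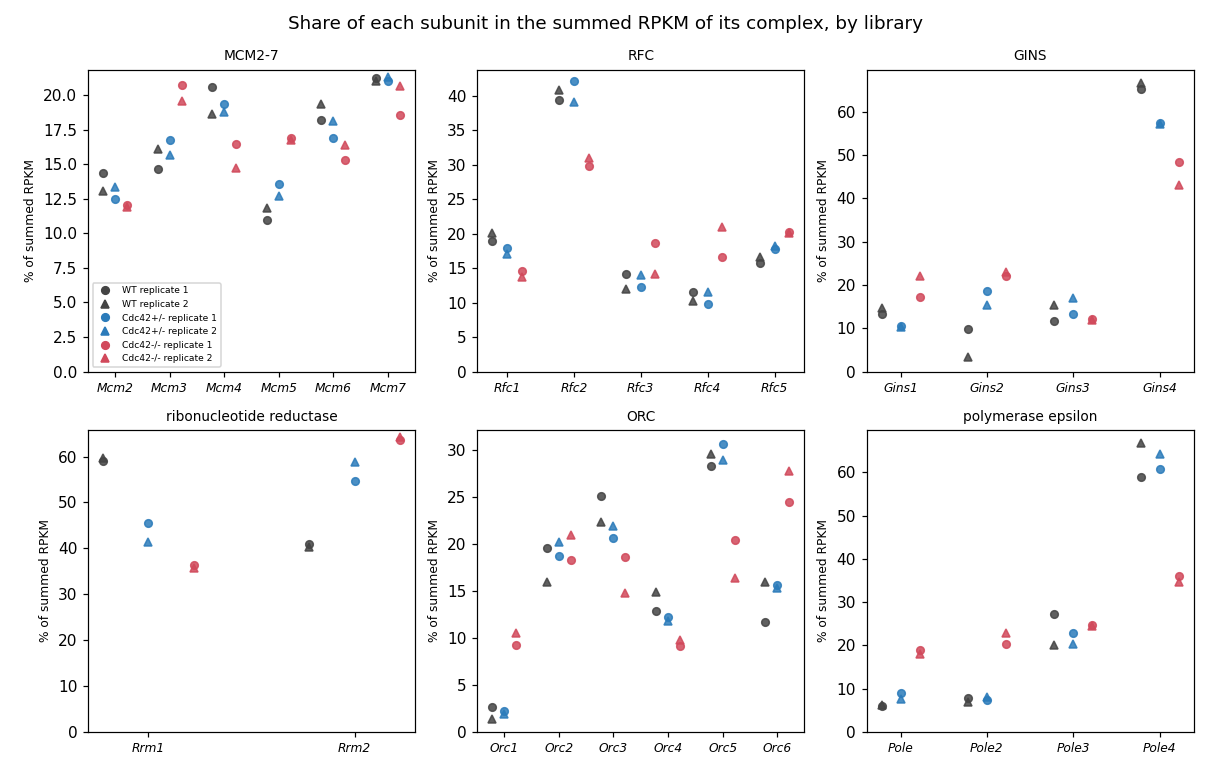
Share of each subunit in the summed RPKM of its complex (vertical axis, %, from 0), for MCM2-7, RFC, GINS, ribonucleotide reductase, ORC and polymerase epsilon, with 1 point per library. Of the 27 subunits, 11 had a higher share in both Cdc42-/- libraries than in all others (Mcm3, Mcm5, Gins1, Gins2, Rfc4, Rfc5, Rrm2, Orc1, Orc6, Pole and Pole2), 12 had a lower share, and Gins3, Rfc3, Orc2 and Pole3 overlapped.

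Of the 8 genes that activate the helicase, 5 rose in Cdc42-/- against WT (median 1.51). Mcm10, which is needed for the loaded helicases to begin unwinding, had 0.956 and 1.10 (WT), 2.08 and 1.94 (Cdc42+/-) and 8.69 and 15.3 RPKM (Cdc42-/-). Its level was thus among the lowest in WT and its mean RPKM was 11.7-fold higher in Cdc42-/- (log2 fold change 2.63, SE 0.28, adjusted p 0.00408), a call lost without WT replicate 1 (adjusted p 0.0511). Dbf4, the activator of the kinase Cdc7, had 6.21 and 8.17 (WT), 11.9 and 10.0 (Cdc42+/-) and 27.1 and 34.4 RPKM (Cdc42-/-) (1.96, SE 0.19, adjusted p 0.00326). Cdc7 itself rose by 0.88 (SE 0.13, adjusted p 0.0109), and Cdc45, part of the active helicase, by 1.88 (SE 0.33, adjusted p 0.0192). The calls of Cdc7 and Cdc45 were each lost in 5 of 16 alternatives: without either WT library, without either Cdc42+/- library and with only the 2 genotypes compared.

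All 4 genes of the GINS complex, the third part of the active helicase, were higher in both Cdc42-/- libraries than in both WT libraries, and 1 of them passed the test. Gins2 rose by 2.25 (SE 0.35, adjusted p 0.0130), from 3.09 and 1.13 RPKM in WT, a call lost without WT replicate 2. Gins1 had 4.14 and 4.94 (WT), 3.27 and 3.43 (Cdc42+/-) and 8.22 and 15.3 RPKM (Cdc42-/-), lowest in Cdc42+/- and highest in Cdc42-/-. It missed the threshold against WT (1.15, SE 0.28, adjusted p 0.0527), where it passed in 3 of 16 alternatives, and passed against Cdc42+/- (1.49, SE 0.28, adjusted p 0.0320), a call lost in 5 of 16 alternatives. Gins3, at 3.65 and 5.13, 4.11 and 5.68, and 5.85 and 8.26 RPKM in the order WT, Cdc42+/-, Cdc42-/-, did not pass (0.58, SE 0.25, adjusted p 0.191). Gins4, at 20.4 and 22.3, 17.7 and 19.0, and 23.2 and 29.9 RPKM, did not pass either (0.29, SE 0.15, adjusted p 0.255). Gins4 was by far the most abundant GINS transcript in WT, with 65.2% and 66.6% of the summed RPKM, and its share in Cdc42-/- was 48.4% and 43.1%. Gins1 overlaps the annotated gene Gm20550 and Gins2 overlaps Gse1.

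Of the 9 polymerase and primase genes, 8 rose against WT (median 1.33). Pole, the catalytic subunit of the leading strand polymerase epsilon, had 3.11 and 3.31 (WT), 5.01 and 4.12 (Cdc42+/-) and 13.8 and 17.0 RPKM (Cdc42-/-) (1.95, SE 0.18, adjusted p 0.00275). Its partner Pole2 rose by 1.95 (SE 0.21, adjusted p 0.00402), whereas the histone-fold subunits Pole3 and Pole4, from the further list, did not pass (0.68 and -0.17, adjusted p 0.0782 and 0.470). The highest polymerase epsilon subunit stood at 9.95 and 10.8 times the lowest in WT, 8.17 and 8.51 times in Cdc42+/-, and 1.90 and 1.94 times in Cdc42-/-. The same ratio in polymerase delta, with Pold4 of the further list, was 6.45 and 4.85 (WT), 6.78 and 4.89 (Cdc42+/-) and 5.998 and 12.6 (Cdc42-/-), so its libraries overlapped.

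Polymerase alpha and its primase, which lay down the primers, rose in all 4 subunits: Pola1 by 1.85, Prim1 by 1.81, Prim2 by 1.33 and Pola2 by 1.16 (SE 0.21, 0.20, 0.15 and 0.13). In polymerase delta, which copies the lagging strand, the catalytic subunit Pold1 rose by 0.94 (SE 0.11, adjusted p 0.00467) and Pold3 by 0.74 (SE 0.14, adjusted p 0.0270), calls lost without either WT library and, for Pold3, in 6 of 16 alternatives in all. Pold2 had the lowest difference of all 46 members. It had 21.9 and 18.2 (WT), 20.9 and 18.1 (Cdc42+/-) and 20.3 and 28.2 RPKM (Cdc42-/-), so the genotypes overlapped (0.25, SE 0.19, adjusted p 0.412).

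Of the 8 genes of the sliding clamp, its loader and Okazaki fragment processing, 6 rose (median 1.30). Pcna, the clamp that tethers polymerases to DNA, was the highest member in every genotype, at 112 and 107 (WT), 141 and 125 (Cdc42+/-) and 206 and 306 RPKM (Cdc42-/-) (1.20, SE 0.19, adjusted p 0.0148). The 3 genotypes did not overlap for Pcna, but its call was lost in 5 of 16 alternatives, with adjusted p-values up to 0.126. The annotation names Pcna-ps1 and Pcna-ps2, so reads may have been split between the gene and these pseudogenes. Lig1, the ligase that joins Okazaki fragments, had the smallest p of this role, from 8.48 and 8.86 (WT) and 14.4 and 14.5 (Cdc42+/-) to 39.9 and 50.8 RPKM (Cdc42-/-) (2.25, SE 0.15, adjusted p 0.00144). Fen1, which trims the flap before ligation, rose by 1.29 (SE 0.18, adjusted p 0.00939).

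In the clamp loader RFC, Rfc4, Rfc5 and Rfc3 rose by 1.75, 1.35 and 1.32 (SE 0.24, 0.17 and 0.12). Rfc1, the large subunit, had 12.8 and 15.6 (WT), 14.9 and 14.0 (Cdc42+/-) and 19.7 and 24.7 RPKM (Cdc42-/-) (0.61, SE 0.16, adjusted p 0.0645). Rfc2, the most abundant of the 5 transcripts, was at 26.7 and 31.6, 35.2 and 32.2, and 40.3 and 55.5 RPKM in the same order (0.68, SE 0.18, adjusted p 0.0595). Both genes were higher in each Cdc42-/- library than in any other without passing the threshold. Rfc1 passed in 3 and Rfc2 in 2 of 16 alternatives.

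All 5 nucleotide supply genes rose against WT (median 1.61), and Rrm2 had the largest difference of all 46 members. Rrm2, the small subunit of ribonucleotide reductase, which makes deoxyribonucleotides and is degraded outside S phase, had 8.50 and 8.89 (WT), 25.0 and 25.2 (Cdc42+/-) and 80.7 and 128 RPKM (Cdc42-/-). The 3 genotypes were far apart and the mean was 12.0-fold higher in Cdc42-/- than in WT (log2 fold change 3.40, SE 0.21, adjusted p 0.00144), a value that ranked 32 from the top among all genes tested. In Cdc42+/- against WT, Rrm2 had a log2 fold change of 1.43 (SE 0.21, adjusted p 0.296 in limma, ranging from 0.00223 to 1.00 over the alternatives), and the authors' deposited table gives 1.51 with an adjusted p of 2.07e-20. The large subunit Rrm1 rose by 2.08 in Cdc42-/- relative to WT (SE 0.21, adjusted p 0.00370). The ratio of Rrm2 to Rrm1 RPKM was 0.693 and 0.675 (WT), 1.20 and 1.42 (Cdc42+/-) and 1.75 and 1.81 (Cdc42-/-). Rrm2b, the p53-inducible small subunit used outside S phase and a gene of the further list, did not pass, with a log2 fold change of -0.43 (adjusted p 0.118).

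The other nucleotide genes were the thymidine kinase Tk1, which rose by 1.61 (SE 0.26, adjusted p 0.0143), the dUTPase Dut, by 1.51 (SE 0.21, adjusted p 0.00893), and the thymidylate synthase Tyms, by 1.43 (SE 0.28, adjusted p 0.0268). The call of Tyms against WT was lost in 5 of 16 alternatives, and those of Tk1 and Dut without either WT library. Tyms did not pass against Cdc42+/- (1.16, SE 0.28, adjusted p 0.0571). The annotation names a pseudogene, Tyms-ps.

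The 4 genes that restore chromatin and DNA methylation behind the fork had the highest median of any role, 2.01, and all 4 rose against both other genotypes. Uhrf1, which binds hemimethylated DNA and recruits Dnmt1, had 6.48 and 6.15 (WT), 13.1 and 12.1 (Cdc42+/-) and 44.0 and 63.5 RPKM (Cdc42-/-) (2.88, SE 0.19, adjusted p 0.00144). Chaf1a, the large subunit of chromatin assembly factor 1, which places new histones on copied DNA, had 2.37 and 2.72 (WT), 4.94 and 4.48 (Cdc42+/-) and 19.8 and 22.4 RPKM (Cdc42-/-) (2.64, SE 0.16, adjusted p 0.00144). Neither gene overlapped between genotypes, and both kept their call against WT under every alternative. Dnmt1, the maintenance methyltransferase, rose by 1.29 (SE 0.11, adjusted p 0.00209) from 27.0 and 27.3 RPKM in WT, and Chaf1b by 1.39 (SE 0.20, adjusted p 0.00992).

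**Figure D3:**
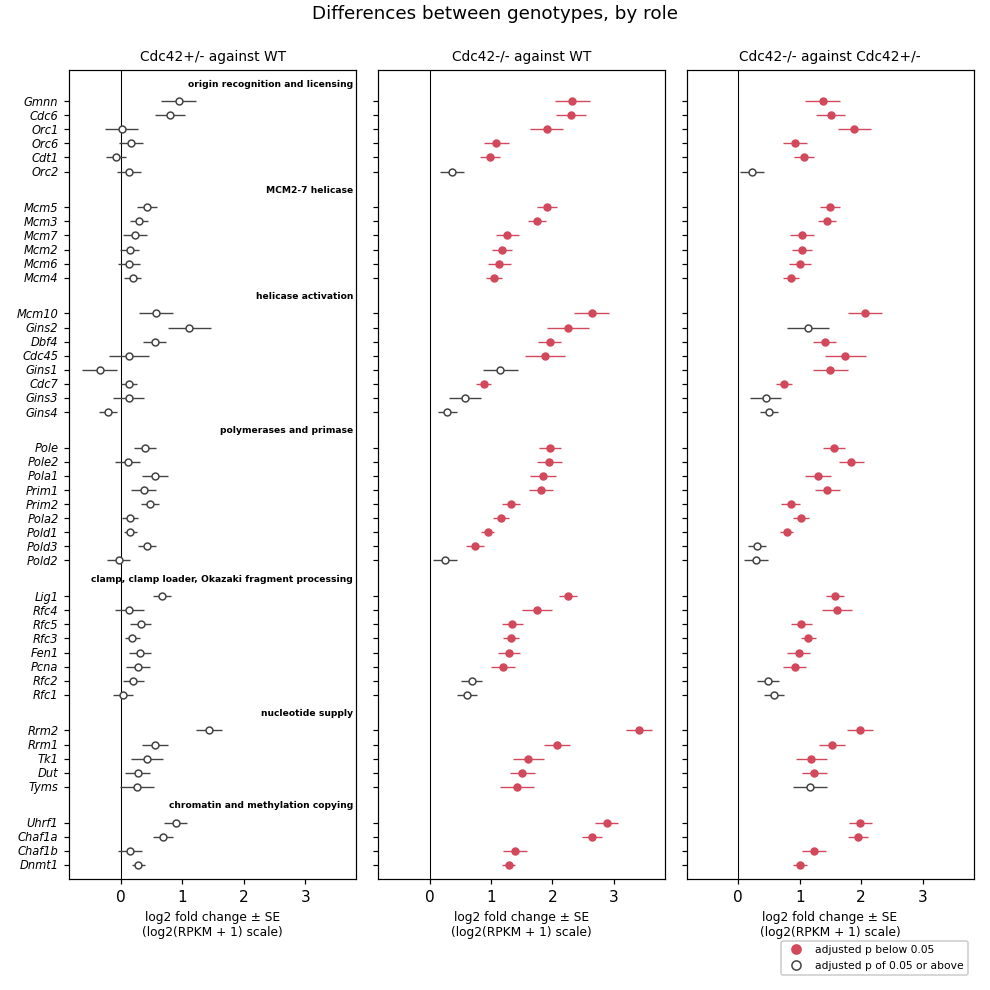
Log2 fold change of each member with its standard error (limma, log2(RPKM + 1) scale, zero line drawn) in the 3 comparisons, grouped by role; filled points passed an adjusted p of 0.05. No point is filled in the comparison of Cdc42+/- with WT, 39 are filled in that of Cdc42-/- with WT and 37 in that of Cdc42-/- with Cdc42+/-.

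The difference of single members from WT ranged from 0.25 for Pold2 to 3.40 for Rrm2, and 36 of the 46 reached a log2 fold change of at least 1, against 7.84% of all genes. The 7 that did not pass were Orc2, Gins1, Gins3, Gins4, Pold2, Rfc1 and Rfc2. By the authors' deposited table, 36 members were higher past an adjusted p of 0.05 and 0 lower, against 6.0% and 2.66% of its genes. The 10 others there were these 7 with Cdc7, Pold3 and Orc6.

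**Figure D4:**
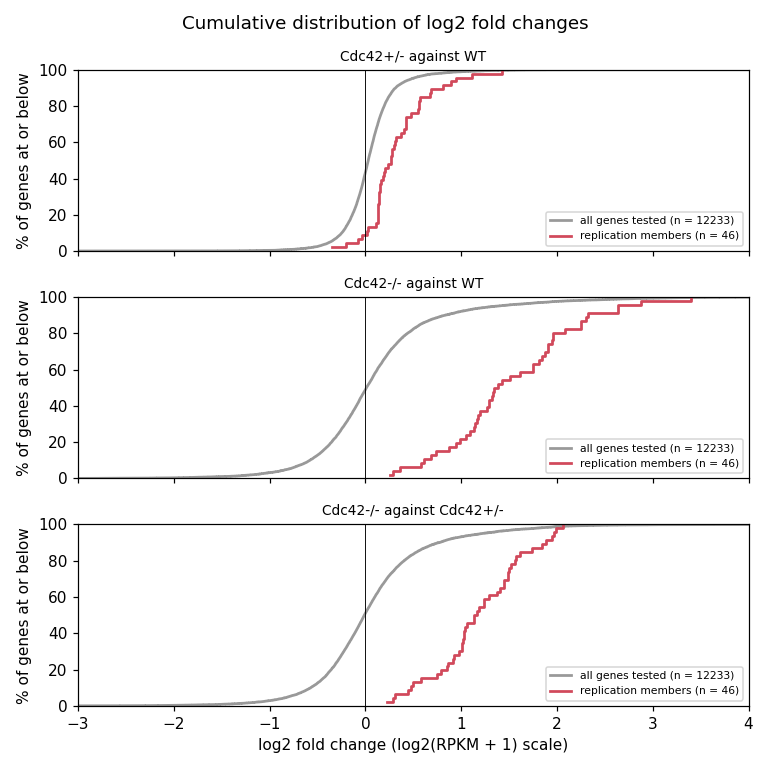
Cumulative percentage of genes (vertical axis) at or below each log2 fold change (horizontal axis, log2(RPKM + 1) scale, shown from -3 to 4) for the 46 members and for all 12233 genes tested, 1 panel per comparison. The middle of the members' curve lies to the right of that of all genes in each panel, with medians of 0.27, 1.37 and 1.15 against 0.03, 0.01 and -0.01.

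A further list of 47 replication genes in the tables, also chosen with earlier results of these data known, had 20 that rose and 0 that fell in Cdc42-/- against WT (6.86% and 4.57% of all genes). In Cdc42+/- against WT 0 passed (0% of all genes) and 5 were higher at an unadjusted p below 0.05 (3.16%), and in Cdc42-/- against Cdc42+/- 17 rose (4.68%). Its median log2 fold change in Cdc42-/- against WT was 0.59, against 0.01 over all genes. The highest were Top2a, the topoisomerase that untangles sister chromatids (3.58, SE 0.19), the histone chaperone Asf1b (2.93, SE 0.26), the checkpoint adaptor Clspn (2.81, SE 0.18) and Ticrr, which links Cdc45 to the loaded helicase (2.41, SE 0.24). Top2a had 12.3 and 13.8 (WT), 37.4 and 34.0 (Cdc42+/-) and 138 and 203 RPKM (Cdc42-/-), again without overlap. Asf1a, the paralog of Asf1b, did not pass (0.02, adjusted p 0.953). In the single-strand DNA binding complex Rpa2 rose by 1.11 (adjusted p 0.00773), while Rpa1 and Rpa3 did not pass (0.23 and 0.56, adjusted p 0.202 and 0.306). The lowest were Rrm2b, Orc5, Orc4 and Orc3, none of which passed.

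The Cdc42-/- libraries differed from each other more than those of the other genotypes did, in all genes as well as in the members: the median absolute difference between replicates on the log2 scale was 0.30 over all genes and 0.43 over the members, against 0.16 and 0.14 in WT and 0.12 and 0.11 in Cdc42+/-. Replicate 2 was above replicate 1 for 46 of the 46 members, against 53.8% of all genes, by a median of 0.43 on the log2 scale, against 0.04 over all genes. In WT the count was 26 of 46 (44.5% of all genes) and in Cdc42+/- 16 of 46 (49.9%). The summed RPKM of the members was 632 and 634 (WT), 804 and 763 (Cdc42+/-) and 1496 and 2067 (Cdc42-/-). Replicate 2, the higher, is also the library with 1094 RPKM of myeloid, 546 RPKM of neutrophil, 193 RPKM of plasma cell and 77.7 RPKM of erythroid markers, each the highest of the 6 libraries, and their part in its higher level was not tested. Replicate 1, whose members' sum was also above every WT and Cdc42+/- library, had 22.3 RPKM of myeloid and 37.7 RPKM of erythroid markers, each above all WT and Cdc42+/- libraries, and their part was not tested there either.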

How the data were processed

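RNA-seq was analysed in 6 libraries, grouped by the genotype in the sample titles. TopHat and mm10 are named in the submitters' processing notes; the counting tool, annotation and strand setting are not given in the sources used here. The authors deposited 2 tables of 14608 genes with a column per library, whose headers name no unit. Its deposited values behave as RPKM, 1 value being a whole number of reads over gene length and depth (100% of values whole within 0.01). The deposited group means are a signal, size-factor-scaled reads, and the authors also deposited a ratio (fold change), its log2 and p-values. There were 0 columns of unknown sample, and 5 genes had no symbol.

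The main test was limma 3.58.1 (R 4.3.3) on log2(RPKM + 1) with a trended variance prior, with 6 libraries in 1 fit, a mean of at least 0.5 RPKM and Benjamini-Hochberg adjustment at 0.05. It was checked on simulated data. Recovered reads were used for depth and a voom fit only. The labels do not tie the libraries to single mice, though the series text names 2 mice per genotype, so p-values measure the spread between these libraries.

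Per-library values are given for Mcm2 to Mcm7, Pcna, the top 6 and bottom 6 members by difference between Cdc42-/- and WT, up to 6 that did not pass there, the top 3 by p between Cdc42+/- and WT, the highest and lowest in WT and the smallest p of each role. The members and lists were chosen with earlier results of these data known. Other genes of the further list were named to set paralogs and partner subunits beside the members, after their values were seen. Alternatives were another pseudocount (0.1), no filter, a mean of 5 RPKM, 2 scalings, array weights, no trend, voom, only the 2 genotypes compared, the replicate block, and each library left out in turn. Promoter windows are from RefSeq (GRCm38.p6), and 8 members without one are not shown. Python 3.11.15 was used for tables and figures.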

Additional observations from a re-analysis of the deposited data

How the results depend on the processing

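With 2 libraries per genotype the counts of members past the threshold depended on the libraries in the fit, whereas the members' median kept its direction under all 10 alternatives and all 6 left-out libraries. In Cdc42-/- against WT, 32 to 40 members passed over the 10 alternatives (3.11% to 8.47% of all genes) and 14 to 45 with 1 library left out (from 1.6% of all genes for the 14, without WT replicate 2, to 20.8% for the 45, without Cdc42-/- replicate 1); the median ranged from 1.30 to 1.49 and from 1.22 to 1.56. In Cdc42-/- against Cdc42+/-, 14 members passed with only the 2 genotypes compared (1.46% of all genes), 31 to 38 under the other alternatives (3.53% to 6.06%), and 0 to 43 with 1 library left out (0% to 19.3%) (median 0.95 to 1.41). In Cdc42+/- against WT, 1 member passed with only the 2 genotypes compared (0.376% of all genes), 3 with array weights (0.613%), and 0 to 2 with 1 library left out (0% to 0.482%) (median 0.23 to 0.32). Leaving out 1 library leaves a genotype with a lone sample, which is assumed to vary like the others. With 1 library left out the order of the genotypes was without overlap for 35 to 39 members, and for 11.4% to 12.9% of all genes. With the replicate block the counts were 0, 40 and 34 (0%, 5.67% and 3.95% of all genes) in Cdc42+/- against WT, Cdc42-/- against WT and Cdc42-/- against Cdc42+/-; same-numbered libraries had correlations of deviations of 0.02, 0.20 and -0.03, so the numbers were not taken to pair the libraries. Over all 46 members, signs reversed in Cdc42+/- against WT for 9 with 1 library left out and for 2, Orc1 and Rfc1, under another alternative, each with a difference of at most 0.17, and for 0 in the other 2 comparisons. The 9 were Cdc45, Cdt1, Chaf1b, Orc1 and Orc6 with these 4 described by library: Gins3 ranged from -0.070 to 0.33, Orc2 from -0.028 to 0.30, Pold2 from -0.16 to 0.089 and Rfc1 from -0.10 to 0.17, and Rfc1 was at -0.00048 with upper-quartile scaling. The cause was not tested. MCM2-7 shares from recovered reads were not run. Of 46 members, 44 entered the fit with a mean of at least 5 RPKM, which leaves out Cdc6 and Orc1. Gins2 in WT, with 10 reads in 1 library, is the value most limited by depth.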
